A study of Mus musculus with 12 samples.

Results

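Alpha and beta tubulin are the protein pair from which microtubules are built, and in mouse each is encoded by a family of closely related genes. Of 45777 genes in the table, 10 tubulin genes were followed across 12 livers, with 5 in the beta family (*Tubb2a*, *Tubb2b*, *Tubb4b*, *Tubb5*, *Tubb6*) and 5 in the alpha family (*Tuba1a*, *Tuba1b*, *Tuba1c*, *Tuba4a*, *Tuba8*). They are named by symbol, and the set was chosen on the differences between acetaminophen-treated and vehicle-treated livers that earlier work on these same data had shown. Values of that contrast are therefore given for the members as a description, without p-values. All 10 passed the filter on low counts in each of the 5 comparisons made here. Another 6 alpha and beta tubulin genes in the table are described last.

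The study profiled liver mRNA of male C57BL/6 mice 10 to 12 weeks old, fasted overnight, in 4 groups of 3 livers. The WT vehicle group and the WT APAP group were labelled wild type. The KO vehicle group and the KO APAP group carried the label Gα12-/- (a knockout of *Gna12*, which encodes the G protein subunit Gα12), and the WT animals were their littermates. APAP is acetaminophen, an analgesic that injures hepatocytes at high dose, given once at 300 mg/kg by intraperitoneal injection 6 h before sampling. The *Gna12* counts did not separate the labels: they were 1193 to 4373 in the 6 WT livers and 2472 to 4003 in the 6 livers labelled KO, with a log2 difference of -0.19 (SE 0.24) for WT against the KO label with vehicle (edgeR, adjusted p = 0.878). A count over the whole gene checks a deletion only where the reads come from the deleted part, so the groups are called by their labels throughout. The study itself describes PCR of tail DNA, liver qRT-PCR for *Gna12* and liver immunoblots for Gα12 in WT and knockout mice. Whether those assays covered the sequenced mice is not given in the sources used here. Each library held 49737950 to 69566079 counts. The library of WT APAP replicate 1 stood apart, with 238212 counts of the haemoglobin gene *Hba-a1* against 2551 to 7713 in the other 11 livers.

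Microtubules are hollow polymers that grow and shrink by adding and losing alpha-beta tubulin pairs, and in hepatocytes they carry secretory vesicles and membrane proteins to the sinusoidal and canalicular surfaces. Cells also hold their tubulin mRNA in check by autoregulation: when free tubulin is plentiful, the protein TTC5 recognises the first residues of a tubulin chain as it leaves the ribosome, and with SCAPER and the CCR4-NOT deadenylase brings about decay of that mRNA. The signal lies in the first residues, methionine, arginine, glutamate and isoleucine in beta tubulin and methionine, arginine, glutamate and cysteine in alpha tubulin.

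The first 30 coding bases of 9 members show this stretch, and they are printed because the alpha and beta families share the mechanism but not the letters. The capitals mark the first 12 bases, which encode those residues. The sequences are those of the GENCODE transcripts on GRCm38.p6 matched to each member.
Tubb2a: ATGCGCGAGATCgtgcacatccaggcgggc
Tubb2b: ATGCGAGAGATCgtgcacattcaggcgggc
Tubb4b: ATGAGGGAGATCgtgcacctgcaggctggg
Tubb5: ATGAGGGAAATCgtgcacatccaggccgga
Tuba1a: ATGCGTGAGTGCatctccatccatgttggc
Tuba1b: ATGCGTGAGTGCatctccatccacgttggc
Tuba1c: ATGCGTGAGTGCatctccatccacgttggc
Tuba4a: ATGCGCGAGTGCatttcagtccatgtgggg
Tuba8: ATGAGGGAATGCatatcggtccatgtgggt
The stretch was the same for *Tuba1b* and *Tuba1c* in all 30 bases, while *Tubb4b*, *Tubb5* and *Tuba8* used an arginine codon that begins with A and the other members printed one that begins with C. Within each family all members printed encode the same residues in these 12 bases. *Tubb6* is not among those printed, and the part of autoregulation in the APAP-to-vehicle differences was not tested.

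Promoters of 8 members matched the RefSeq promoter table of GRCm38.p6 (250 bases before the start of transcription to 50 after it), and the part before the start is printed for 3 of them. *Tubb2a* is shown because it had the highest level after APAP, *Tubb4b* because it led the beta family with vehicle, and *Tuba1c* as the alpha gene with the largest share gain. The capitals mark the motifs found.
Tubb2a, chr13:34078009-34078258, minus strand: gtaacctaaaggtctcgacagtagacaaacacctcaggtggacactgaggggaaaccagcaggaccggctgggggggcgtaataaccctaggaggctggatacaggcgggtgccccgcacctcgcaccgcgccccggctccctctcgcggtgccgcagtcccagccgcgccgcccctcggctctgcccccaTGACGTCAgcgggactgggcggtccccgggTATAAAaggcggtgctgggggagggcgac
Tubb4b, chr2:25224703-25224952, minus strand: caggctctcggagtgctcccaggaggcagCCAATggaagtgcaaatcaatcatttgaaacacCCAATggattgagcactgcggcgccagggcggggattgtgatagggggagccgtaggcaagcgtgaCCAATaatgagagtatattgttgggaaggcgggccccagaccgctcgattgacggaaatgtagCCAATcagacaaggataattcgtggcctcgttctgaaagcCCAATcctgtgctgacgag
Tuba1c, chr15:99029641-99029890, plus strand: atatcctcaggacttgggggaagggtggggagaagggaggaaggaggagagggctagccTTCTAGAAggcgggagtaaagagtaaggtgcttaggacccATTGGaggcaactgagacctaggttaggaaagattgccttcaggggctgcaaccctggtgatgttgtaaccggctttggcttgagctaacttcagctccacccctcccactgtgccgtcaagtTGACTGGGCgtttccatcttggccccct

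The motifs were searched on both strands of the whole 300-base window. The cAMP response element TGACGTCA, a site for CREB and ATF factors, was in *Tubb2a* (first base at -59 from the start) and in none of the other 7 promoters, against 1.79% of 32851 promoters. The TATA box TATAAA was in *Tubb2a* at -29 and in *Tubb4b* at 19, against 13.6% of promoters. The CCAAT box CCAAT was in *Tubb4b*, *Tubb5*, *Tuba1a* and *Tuba1c*, against 37.4%. The antioxidant response element TGACNNNGC was in *Tuba1a* and *Tuba1c*, against 12.4%. The heat shock pair TTCNNGAA was in *Tubb5* and *Tuba1c*, against 8.52%, and the TEAD site GGAATG was in *Tubb5*, against 14.7%. The AP-1 site TGANTCA, the C/EBP-ATF element TGATGNAA and the other heat shock pair GAANNTTC had no match among the 8, against 7.81%, 3.97% and 7.86% of promoters. No matches overlapped each other in the promoters printed. No motif searched was shared by all 8, and a match or its absence is a description of these letters only.

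Levels are compared between genes as TPM (transcript abundance scaled for transcript length and library size), as deposited. With vehicle the order was led by *Tuba4a*, an alpha isotype whose chain lacks the usual encoded C-terminal tyrosine, at 51.4 ± 7.63 TPM (mean ± SD, n = 3) in WT and 68.1 ± 5.19 under the KO label. *Tubb4b*, a widely expressed beta isotype, came next at 46.0 ± 4.67 and 63.4 ± 10.3 TPM, and its range overlapped that of *Tuba4a* in both groups. *Tuba1c* followed at 28.6 ± 4.71 and 35.4 ± 7.37 TPM. Below them were *Tuba1b*, *Tubb2a* and *Tubb5*, each with a mean between 13.6 and 26.8 TPM, and then *Tuba1a* at 6.73 ± 0.661 and 8.36 ± 1.98 TPM. *Tubb2b*, *Tubb6* and *Tuba8* closed the order with means of 1.19 to 3.14 TPM, and neighbours among these 3 overlapped in both vehicle groups.

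After APAP the order was led by *Tubb2a*, at 200.2 ± 44.2 TPM in WT and 264.9 ± 62.8 under the KO label. Next was *Tubb4b*, at 123.3 ± 52.9 and 192.9 ± 45.9 TPM, with a range that overlapped that of *Tubb2a* in both groups. *Tuba4a* and *Tuba1c* came after them, at 76.1 ± 31.6 and 72.4 ± 10.6 TPM in WT, and their ranges overlapped. *Tubb2b* (37.2 ± 7.35 TPM in WT) then lay beside *Tuba1b* (38.5 ± 8.61 TPM). *Tuba8* remained last, at 0.808 ± 0.703 and 0.941 ± 0.123 TPM, below every other member in all 6 APAP livers. The APAP-treated livers thus held a different leading isotype from the vehicle livers. As CPM (counts scaled to library size with TMM factors), *Tubb2a* was 218.9 ± 25.2 in WT APAP and 223.2 ± 46.9 in KO APAP. WT APAP replicate 1, the liver with the high haemoglobin counts, was the lowest WT APAP liver for *Tubb2a* in TPM (153.5) and the highest in CPM (247.8). TPM values are therefore set side by side for genes and not for labels.

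**Figure D1:**
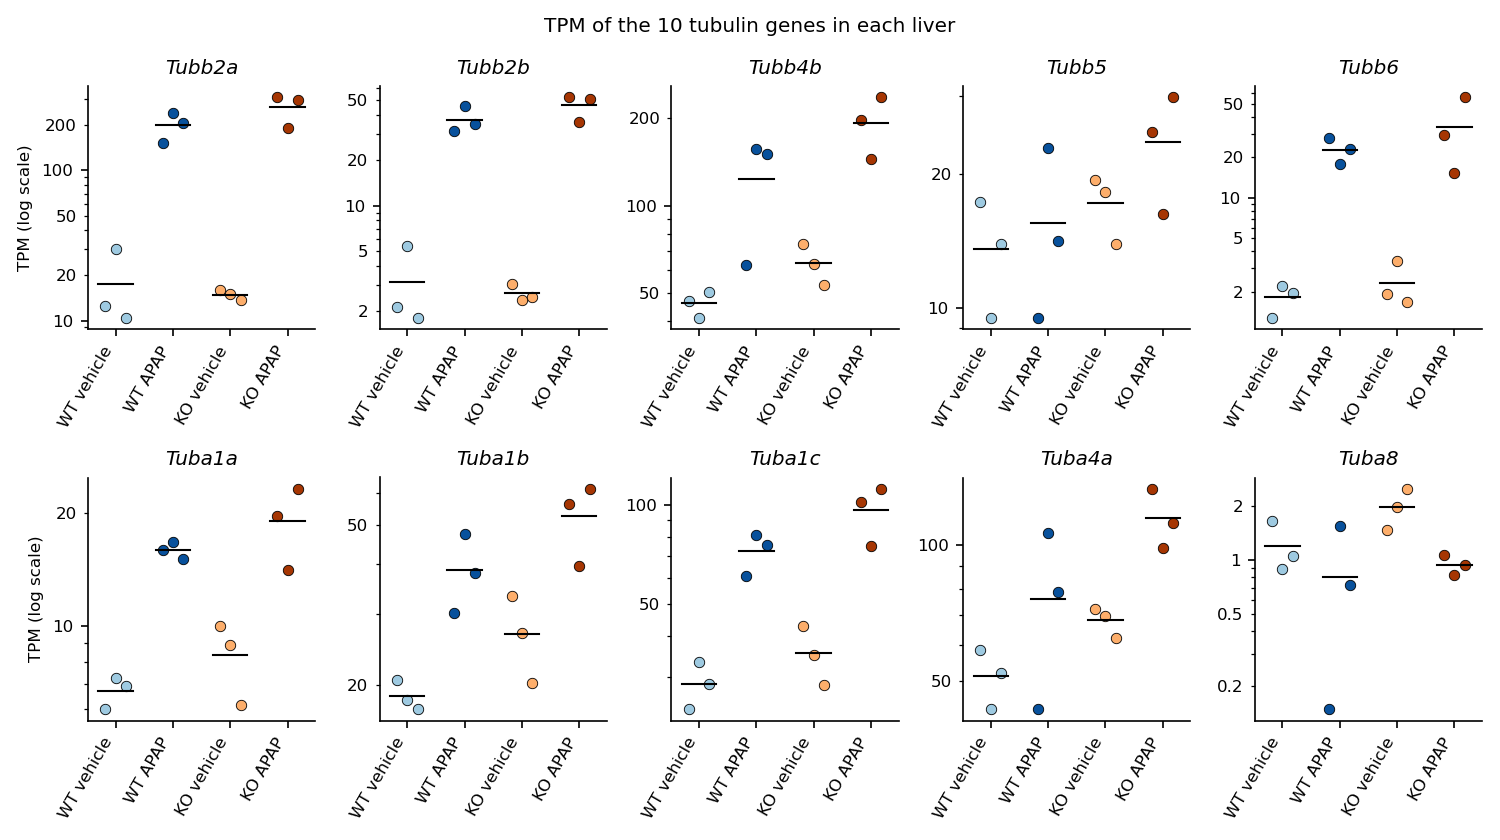
TPM of each of the 10 tubulin genes (vertical axes, log scale, different for each gene) in the 12 livers, by group. Points are single livers and bars are group means, and *Tubb2a* went from 10.4 to 29.97 TPM in the 6 vehicle livers to 153.5 to 308.7 TPM in the 6 APAP livers.

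*Tubb2a* and *Tubb2b*, a pair of class II beta isotypes best known from neurons, lie on the same strand of chromosome 13 (34074278 to 34078008 and 34127008 to 34130354, GRCm38.p6), with 48999 bases between them. *Tubb2a* stood at 12.5, 29.97 and 10.4 TPM in the WT vehicle livers and at 153.5, 241.3 and 205.9 TPM in the WT APAP livers. Under the KO label it was 16.0, 15.0 and 13.7 TPM with vehicle and 308.7, 193.0 and 293.0 TPM after APAP. Every APAP liver was above every vehicle liver, and WT vehicle replicate 2 was the highest of the vehicle livers. The log2 fold change of APAP against vehicle was 3.57 (SE 0.46) in WT and 3.94 (SE 0.20) under the KO label, which is 11.9-fold and 15.3-fold. Without WT vehicle replicate 2 the WT value was 4.28.

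*Tubb2b* had the pattern of its neighbour at a lower level. Its TPM was 2.16, 5.46 and 1.81 in WT vehicle and 31.3, 45.4 and 34.8 in WT APAP. The livers labelled KO had 3.04, 2.40 and 2.49 with vehicle and 52.5, 35.6 and 50.8 after APAP. WT vehicle replicate 2 was again the highest vehicle liver, and the groups did not overlap. The log2 fold changes were 3.65 (SE 0.48) in WT and 3.92 (SE 0.19) under the KO label, and the WT value was 4.39 without WT vehicle replicate 2. The ratio of *Tubb2b* to *Tubb2a* counts was 0.192 to 0.244 in all 12 livers. The coding sequences of the pair are 96.5% identical (1291 of 1338 bases), and 36.9% of the 100-base windows of the *Tubb2a* transcript occur unchanged in another gene's transcript, most of them in *Tubb2b*. For *Tubb2b* the share was 27.7%. Reads from such windows could be assigned to either gene, so the division of counts between the pair is uncertain.

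*Tubb6*, a divergent class V beta isotype, lies on chromosome 18 (67390731 to 67402749, plus strand). It measured 1.27, 2.21 and 1.96 TPM in WT vehicle and 27.8, 17.7 and 23.0 TPM in WT APAP. The livers labelled KO had 1.91, 3.37 and 1.67 TPM with vehicle and 29.6, 15.4 and 56.4 TPM after APAP. All 6 APAP livers were above all 6 vehicle livers, and the spread was widest in KO APAP. Its log2 fold changes were 3.86 (SE 0.48) in WT and 3.66 (SE 0.48) under the KO label, or 14.6-fold and 12.6-fold. The KO-label value was 3.06 without KO APAP replicate 3. None of its 100-base windows occurred in another gene's transcript.

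*Tubb4b* (chromosome 2, 25222158 to 25224702, minus strand) had the largest TPM of the beta genes with vehicle. It was 46.8, 41.0 and 50.2 TPM in WT vehicle and 62.3, 157.0 and 150.6 TPM in WT APAP. With the KO label it was 73.9, 62.9 and 53.4 TPM with vehicle and 197.1, 145.0 and 236.5 TPM after APAP. Within each label the groups did not overlap, although WT APAP replicate 1 came close to its vehicle livers on the TPM scale. On the CPM scale that liver had 100.2, against 43.3 to 52.7 in WT vehicle. The log2 fold changes were 1.44 (SE 0.20) and 1.41 (SE 0.17). Of its 100-base windows 29.2% were shared, mostly with the pseudogene *Tubb4b-ps1*. That pseudogene, looked up after its values were seen, had 97 to 168 counts in vehicle livers and 257 to 575 in APAP livers, far below the 2147 to 14045 counts of *Tubb4b*.

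*Tubb5*, the class I beta isotype found in most tissues (chromosome 17, 35833920 to 35838301, minus strand), was the beta member with the smallest difference. It stood at 17.3, 9.47 and 13.9 TPM in WT vehicle and 9.48, 22.9 and 14.1 TPM in WT APAP. Livers labelled KO had 19.4, 18.3 and 13.9 TPM with vehicle and 24.9, 16.3 and 29.9 TPM after APAP. The groups overlapped under both labels. Its log2 fold changes were 0.25 (95% interval -0.26 to 0.77) in WT and 0.26 (-0.19 to 0.71) under the KO label. No window of its transcript was shared with another gene.

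Among the alpha genes, *Tuba1a*, *Tuba1b* and *Tuba1c* lie near each other on chromosome 15, at 98949847 to 98953501 (minus strand), 98931429 to 98934390 (minus strand) and 99029891 to 99038105 (plus strand). *Tuba1c*, a broadly expressed isotype, was 23.9, 33.3 and 28.7 TPM in WT vehicle and 60.6, 81.2 and 75.3 TPM in WT APAP. In livers labelled KO its TPM was 43.0, 34.9 and 28.3 with vehicle and 102.3, 75.0 and 112.1 after APAP. No APAP liver overlapped the vehicle livers of its label, and the log2 fold changes were 1.45 (SE 0.24) and 1.26 (SE 0.15).

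*Tuba1b*, another broadly expressed isotype, was 17.3 to 20.6 TPM in WT vehicle, 30.2 to 47.4 in WT APAP, 20.2 to 33.3 in KO vehicle and 39.6 to 61.6 in KO APAP. Its log2 fold changes were 1.15 (SE 0.17) in WT and 0.79 (SE 0.16) under the KO label. *Tuba1a*, an isotype prominent in the developing brain, was 5.99 to 7.28 TPM in WT vehicle, 15.1 to 16.8 in WT APAP, 6.17 to 10.0 in KO vehicle and 14.1 to 23.2 in KO APAP. Both genes were higher in every APAP liver than in the vehicle livers of the same label. For *Tuba1a* the log2 fold changes were 1.40 (SE 0.28) and 1.00 (SE 0.18). The 3 coding sequences are 97.1% to 98.3% identical, and 53.4% to 69.5% of their 100-base windows occur in another transcript, so the split of counts among them is uncertain too.

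*Tuba4a* (chromosome 1, 75214972 to 75221261, minus strand) led the alpha family with vehicle and had a smaller APAP-to-vehicle difference. Its TPM was 58.7, 43.5 and 52.0 in WT vehicle and 43.3, 106.2 and 78.9 in WT APAP. Livers with the KO label had 72.3, 69.8 and 62.3 with vehicle and 133.2, 98.5 and 112.0 after APAP. On the TPM scale WT APAP replicate 1 was the lowest WT liver, whereas on the CPM scale (counts scaled to library size with TMM factors, not to length) all 3 WT APAP livers were above the WT vehicle livers, at 96.5 to 124.1 against 65.4 to 73.0. Log2 fold changes, computed from counts with TMM scaling, were 0.64 (SE 0.17) and 0.57 (SE 0.14).

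*Tuba8*, a divergent alpha isotype (chromosome 6, 121210734 to 121226098, plus strand), was the member with a lower level after APAP. It had 75, 43 and 51 counts in WT vehicle and 11, 92 and 41 counts in WT APAP. With the KO label it had 66, 90 and 125 counts with vehicle and 46, 42 and 51 after APAP. The KO-label groups did not overlap and the WT groups did. Its log2 fold change was -1.34 (SE 0.36) under the KO label and -0.65 (SE 0.58) in WT, and the WT value was -0.24 without WT APAP replicate 1. With replicate 2 of that group left out instead it was -1.35. At 11 to 125 counts a liver this gene was measured with less precision than the others.

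**Figure D2:**
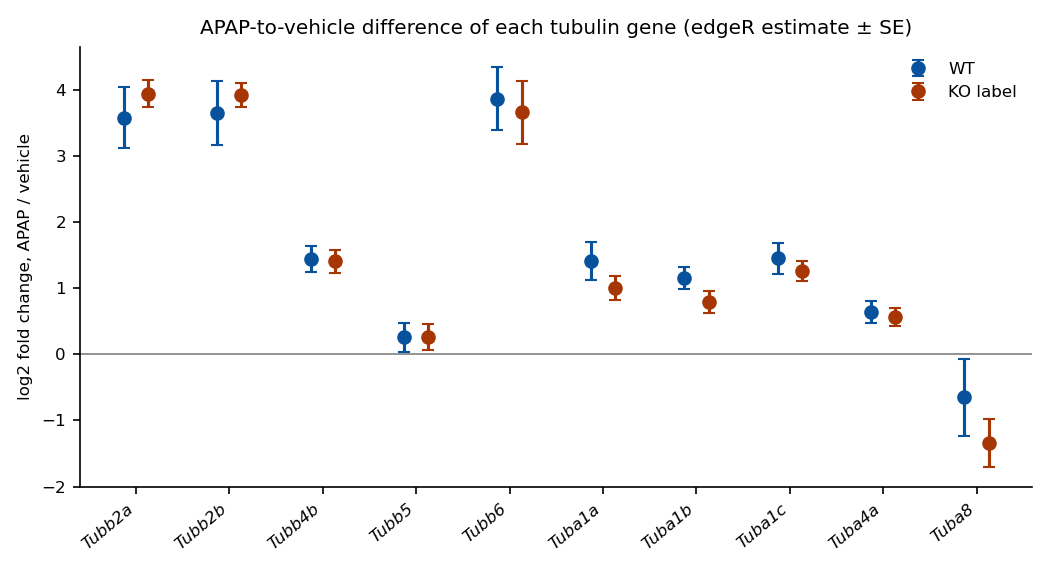
Log2 fold change of APAP against vehicle (vertical axis) for each member, in WT and under the KO label, with bars of 1 SE from edgeR. *Tubb2a*, *Tubb2b* and *Tubb6* lie between 3.57 and 3.94, *Tubb5* near 0.25, and *Tuba8* is below 0.

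Past the threshold of an adjusted p of 0.05 over all genes tested (edgeR quasi-likelihood), 6 of 10 members were higher in WT APAP than in WT vehicle (*Tubb2a*, *Tubb2b*, *Tubb4b*, *Tubb6*, *Tuba1b*, *Tuba1c*), where 2.05% of 15693 genes passed in either direction and 1.62% passed as higher. Under the KO label 8 passed as higher and *Tuba8* as lower, where 22.6% of 15665 genes passed and 13% passed as higher. In WT, 8 members had all 3 APAP livers above all 3 vehicle livers, against 12.9% of all genes, and under the KO label 8 did, against 21.8%. Since this contrast chose the members, nothing is read from these counts. The median log2 fold change over the 10 members was 1.42 in WT and 1.13 under the KO label, beside 0.03 and -0.02 over all genes tested. The WT count rests on single livers: it was 0 without WT vehicle replicate 1, 0 without WT vehicle replicate 3 and 1 without WT APAP replicate 3, while it was 5 without WT APAP replicate 1 and 4 without WT vehicle replicate 2. The fold changes of *Tubb2a* in those 5 fits lay between 3.28 and 4.28. Under the KO label the count was 7 to 8 with any 1 liver left out.

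The make-up of the family transcripts differed between vehicle and APAP livers. *Tubb4b* made up 56.4% ± 8.999 of the summed beta TPM in WT vehicle and 63.0% ± 1.54 in KO vehicle (n = 3 each), and 29.8% ± 6.99 and 34.5% ± 2.01 after APAP. *Tubb2a* took 21.0% ± 11.4 and 14.9% ± 1.05 with vehicle, and 50.6% ± 3.04 and 47.3% ± 3.22 after APAP. *Tubb5* held 16.7% ± 5.53 and 17.1% ± 0.780 with vehicle, and 3.79% ± 0.815 and 4.19% ± 0.259 after APAP. Thus *Tubb4b* led in every vehicle liver and *Tubb2a* in every APAP liver, with a *Tubb2a* to *Tubb4b* TPM ratio of 0.207 to 0.731 with vehicle and 1.24 to 2.46 after APAP. Shares by count rather than TPM gave *Tubb5* more weight, 24.5% and 25.2% with vehicle and 5.95% and 6.59% after APAP.

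In the alpha family the order shifted less. *Tuba4a* went from 48.1% ± 5.52 to 36.2% ± 6.73 of the summed alpha TPM in WT and from 48.8% ± 3.50 to 40.7% ± 3.93 under the KO label. *Tuba1c* went from 27.0% ± 5.34 to 36.2% ± 4.14 and from 25.0% ± 1.65 to 33.9% ± 1.96. *Tuba1b* stayed between 16.4% and 20.8% in all 12 livers. These are means of observed shares in the contrast that chose the members, given without a test.

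**Figure D3:**
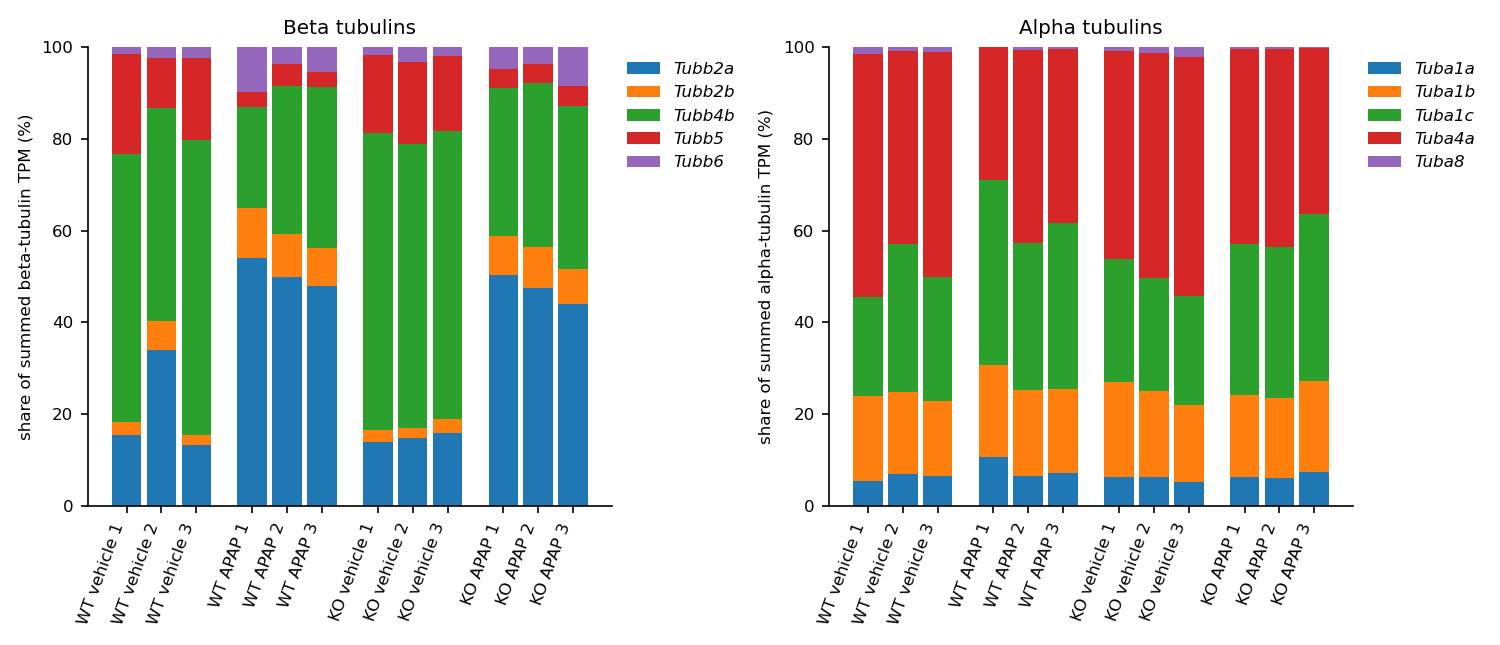
Share of each gene in the summed TPM of its family (vertical axis, percent), in each of the 12 livers, for the beta family on the left and the alpha family on the right. *Tubb2a* holds 13.3% to 34.0% of beta TPM in the vehicle livers and 44.0% to 54.0% in the APAP livers.

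Summed over its 5 genes, the beta family had 82.2 ± 5.24 TPM in WT vehicle and 399.1 ± 103.1 in WT APAP, and 100.4 ± 14.6 and 561.6 ± 138.1 under the KO label. The alpha sum was 106.7 ± 3.81 and 203.8 ± 51.6 TPM in WT, and 140.7 ± 20.3 and 283.4 ± 48.0 under the KO label. In WT APAP replicate 1, the liver with the high haemoglobin counts, the sums were 284.5 TPM (beta) and 150.2 TPM (alpha). Both were the lowest of the 6 APAP livers, and the sums are not compared between labels. The ratio of beta to alpha TPM was 0.712 to 0.853 in the 6 vehicle livers and 1.78 to 2.15 in the 6 APAP livers. It went from below 1 to above 1 in both labels without overlap. Together the 10 genes took 0.0215% to 0.0294% of all counts with vehicle and 0.0579% to 0.101% after APAP. In bulk liver, more cells of a type and more RNA per cell cannot be told apart.

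Whether the labelled genotype bears on the tubulin genes was not part of what chose them, and here tests are given. After APAP no member passed the threshold between WT and the KO label, where 0.0309% of 16174 genes did (edgeR quasi-likelihood), and 0 members had an unadjusted p under 0.05 (0 called by DESeq2). The log2 differences of WT against the KO label ran from -0.34 (*Tubb4b*, adjusted p = 0.958) to 0.21 (*Tuba1a*, adjusted p = 0.961). For *Tubb2a* the difference was -0.01 with a 95% interval of -0.51 to 0.48, and for *Tubb6* it was -0.03 with an interval of -1.21 to 1.15. Differences of that size in either direction were not detectable with 3 livers a group.

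With vehicle, again 0 members passed, where 0.0262% of 15262 genes did (DESeq2 also called 0). An unadjusted p under 0.05 was seen for 3 members, each lower in WT, and for 1154 of the 15262 genes. *Tuba1b* had 17.8 to 19.7 CPM in WT vehicle and 23.7 to 26.5 in KO vehicle, a log2 difference of -0.43 (SE 0.11, edgeR adjusted p = 0.512). *Tubb4b* had 43.3 to 52.7 against 60.2 to 64.0 CPM, a difference of -0.39 (SE 0.12, adjusted p = 0.588). *Tuba4a* had 65.4 to 73.0 against 79.1 to 99.2 CPM, a difference of -0.34 (SE 0.13, adjusted p = 0.618). In these 3 all WT livers lay below all livers labelled KO, as they did for 7.46% of all genes. *Tubb2a* and *Tubb2b* had positive log2 differences of 0.34 and 0.35, which turned to -0.38 and -0.41 without WT vehicle replicate 2.

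The interaction, the APAP effect under the KO label minus that in WT, was tested on all 12 livers. Of 16509 genes 0% passed (0 genes; 848 had an unadjusted p under 0.05, and DESeq2 called 9), and 0 members passed or had an unadjusted p under 0.05. The values were smallest for *Tubb5* (0.01) and *Tubb4b* (-0.04, interval -0.62 to 0.54), and largest in size for *Tuba8* (-0.70, interval -2.25 to 0.86). For *Tubb2a* the value was 0.36 (interval -0.73 to 1.46, edgeR adjusted p = 0.915). *Tuba1b* and *Tuba1a* had -0.36 and -0.41, with intervals of -0.85 to 0.14 and -1.17 to 0.35. A difference of the APAP effect between labels was therefore not detectable for any member, and intervals of this width leave room for one.

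Livers of the same group also differed among themselves. Deviations of log2 CPM from the group mean were compared over the 12 livers for the 45 pairs of members, as a description. *Tubb2a* and *Tubb2b* had the highest correlation (r = 0.98, rho = 0.90), followed by *Tuba1a* with *Tuba1c* (r = 0.91, rho = 0.90) and *Tubb6* with *Tuba1a* (r = 0.90, rho = 0.94). The first and the second of these pairs share windows of sequence. The lowest was *Tuba1a* with *Tuba8* (r = -0.71, rho = -0.58). The median r over pairs was 0.22, with 15 pairs above 0.5 and 17 below 0, so the members did not form a single block.

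The largest single deviations were those of *Tuba8* in WT APAP replicate 1 (-1.25) and replicate 2 (1.06), of *Tubb2b* and *Tubb2a* in WT vehicle replicate 2 (1.07 and 1.03), and of *Tubb6* in KO APAP replicates 3 and 2 (0.94 and -0.89). WT APAP replicate 1, the liver with the high haemoglobin counts, was above its group mean for *Tubb6* (0.85) and *Tuba1a* (0.55) and below it for *Tubb4b* (-0.33) and *Tuba4a* (-0.16). In KO APAP, replicate 2 was below the group mean for all 10 members. The part that blood cells or library composition took in these deviations was not tested.

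**Figure D4:**
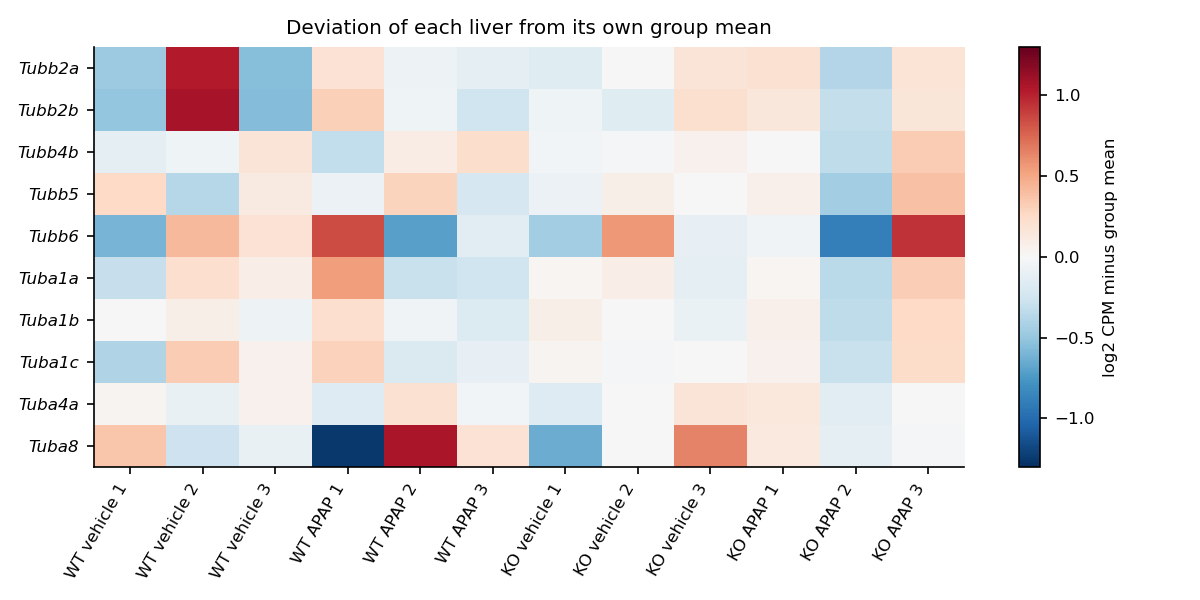
Deviation of log2 CPM from the liver's own group mean (colour scale) for the 10 members (rows) in the 12 livers (columns). The pair *Tubb2a* and *Tubb2b* stands out in WT vehicle replicate 2 (1.03 and 1.07), and *Tuba8* in WT APAP replicates 1 and 2 (-1.25 and 1.06).

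The genes whose deviations were most like the mean profile of the members, out of 10903 ranked over 12 livers, were *Fbl* (fibrillarin, a nucleolar RNA methyltransferase; r = 0.94, rho = 0.88), *Ruvbl1* (an AAA+ ATPase; r = 0.91, rho = 0.88), *Atf1* (0.88 and 0.78), *Comtd1* (0.88 and 0.86), *Tnfsf12* (0.87 and 0.76), *Rspo3* (0.86 and 0.78), *Pgs1* (0.86 and 0.80) and *Cobl* (0.86 and 0.70). The values are r and then rho, and they come from the same 12 libraries, so they share depth and composition. No *p* is given, since the genes were picked as the highest of many.

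Other genes of the tubulin and microtubule machinery were taken from 9 lists of 94 genes in all, of which 82 passed the filter in each APAP comparison. In WT 0 of the 82 passed the threshold for APAP against vehicle (9 had an unadjusted p under 0.05, and DESeq2 called 2), with a median log2 fold change of 0.03. Under the KO label 19 passed, 10 as higher and 9 as lower, with a median of 0.06. That is 23.2%, near the 22.6% of all genes, so the lists did not stand out. Of the 15665 genes tested under the KO label, 2034 passed as higher and 1504 as lower. The lists were written with earlier results of these data known, and the counts for single lists below are descriptions. Adjusted p-values from here on are from edgeR's quasi-likelihood test over all genes.

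Of the autoregulation genes, *Scaper* fell under the KO label, from 5.30 ± 0.627 to 2.80 ± 0.551 CPM (log2 fold change -0.91, adjusted p = 0.0164); in WT its log2 fold change was -0.50 (adjusted p = 0.298). *Ttc5*, the reader of the nascent chain, had log2 fold changes of 0.01 (adjusted p = 0.981) and 0.27 (adjusted p = 0.304). *Cnot11*, a CCR4-NOT subunit, had -0.12 (adjusted p = 0.794) and 0.36 (adjusted p = 0.147). Of the 3 genes 1 passed, in the KO-label livers, where 22.6% of all genes passed.

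Among 13 folding cofactors and prefoldin subunits 2 rose and 1 fell under the KO label. That is 23.1%, near the 22.6% of all genes. *Tbce*, which helps to assemble and to take apart the tubulin pair, rose from 12.5 ± 1.81 to 24.0 ± 1.502 CPM (log2 fold change 0.95, adjusted p = 0.00323). In WT the *Tbce* groups did not overlap either, with a value of 0.94 (adjusted p = 0.0635). *Tbcc* rose by 0.67 (adjusted p = 0.0242) and *Tbcd* fell by 0.48 (adjusted p = 0.0473). None of 8 subunits of the CCT chaperonin, which folds tubulin and actin, passed in either label (0 and 3 with an unadjusted p under 0.05 in WT and under the KO label, 0 and 1 called by DESeq2). The smallest p-values were those of *Cct2* (0.37, adjusted p = 0.0712) and *Cct7* (0.39, adjusted p = 0.0781) under the KO label.

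The 12 genes of the gamma, delta and epsilon tubulins and the nucleating ring complex had 0 calls under both labels (0 and 1 with an unadjusted p under 0.05, DESeq2 0 and 0). *Mzt1* had a log2 fold change of -0.48 (adjusted p = 0.0733) and *Tubg1*, the gamma tubulin that nucleates microtubules, -0.29 (adjusted p = 0.178) under the KO label. Median log2 fold changes of this list were -0.05 in WT and -0.18 under the KO label. Under the KO label, where 1504 of 15665 genes fell and 2034 rose, 4 of 13 tubulin modifying enzymes tested fell and 0 rose. They were *Atat1*, the alpha-tubulin acetyltransferase (-0.83, adjusted p = 0.00948), *Agtpbp1*, a deglutamylase (-0.58, adjusted p = 0.0375), and the glutamylase genes *Ttll1* (-0.90, adjusted p = 0.0403) and *Ttll5* (-0.52, adjusted p = 0.0466). In WT these 4 had values of -0.39 to -0.69, none past the threshold.

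Of 14 stabilisers and plus-end proteins tested, 5 rose and 1 fell under the KO label, where 13% of all genes rose. *Mapre1*, the plus-end tracking protein EB1, rose from 16.4 ± 0.131 to 34.0 ± 3.37 CPM (log2 fold change 1.06, adjusted p = 0.00119), and in WT it was 0.82 (adjusted p = 0.077) without overlap. *Mapre3* (0.74, adjusted p = 0.0155) and *Map7*, a recruiter of kinesin-1 (0.56, adjusted p = 0.0234), rose as well, while *Mapre2* fell by 0.67 (adjusted p = 0.0165). *Kif2a*, a kinesin that takes microtubules apart at their ends, was the only one of 6 destabilisers tested to pass under the KO label (0.70, adjusted p = 0.00859). Among 13 motor genes tested, *Dync1li1* of dynein (0.71, adjusted p = 0.00582) and the kinesin heavy chain gene *Kif5b* (0.57, adjusted p = 0.0257) rose. *Klc4*, a kinesin light chain (-0.81, adjusted p = 0.00403), and *Kif5a* (-0.78, adjusted p = 0.0349) fell. Under the KO label 16.7% of the destabilisers and 30.8% of the motor genes tested passed, beside 22.6% of all genes.

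Of 6 genes of other filaments tested, 4 rose under the KO label, where 13% of all genes did: *Actg1*, cytoplasmic gamma actin (2.92, adjusted p = 0.00507), *Actb*, beta actin (1.76, adjusted p = 0.0115), *Lmna*, which encodes lamin A and C (0.73, adjusted p = 0.0198), and *Krt8*, a keratin of hepatocytes (1.97, adjusted p = 0.0442). DESeq2 called 3 under the KO label, without *Krt8* (DESeq2 adjusted p = 0.0574). In WT 0 passed (5 had an unadjusted p under 0.05, DESeq2 called 4), with *Actg1* at 4.10 (adjusted p = 0.0752). This list was written with earlier results of these data known, so nothing is read from these counts. *Actg1* ranged from 90.6 to 1597 CPM in the 3 WT APAP livers against 33.9 to 49.5 with vehicle. The other two genes of the list, named here after their values were seen, did not pass under either label. *Krt18*, the keratin partner of *Krt8*, had 1.88 under the KO label (adjusted p = 0.0535) and 2.31 in WT (adjusted p = 0.109). *Vim*, the vimentin gene of mesenchymal cells, had -0.65 under the KO label (adjusted p = 0.185) and 0.43 in WT (adjusted p = 0.447), and its groups overlapped under both labels.

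**Figure D5:**
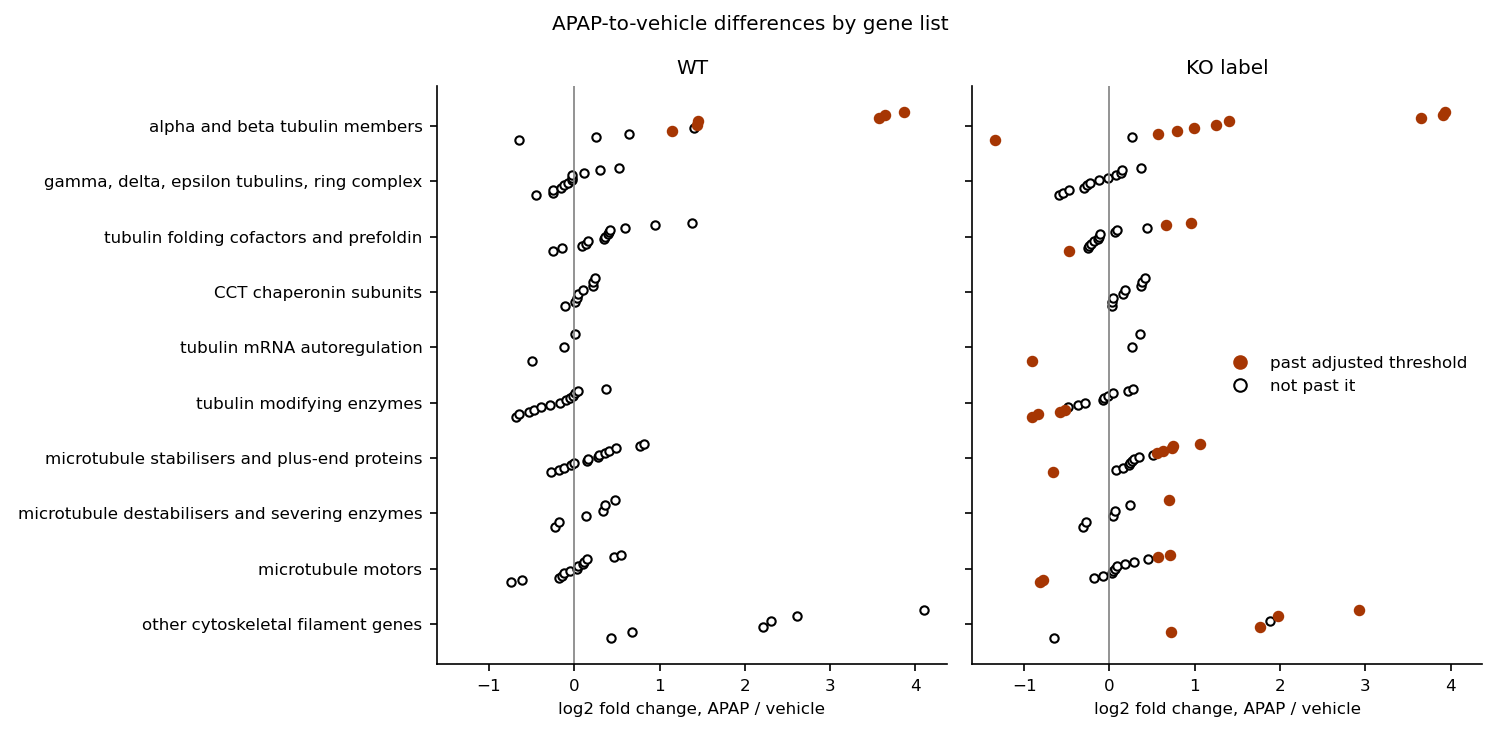
Log2 fold change of APAP against vehicle (horizontal axis) for the members, for 8 lists of tubulin and microtubule genes and for other filament genes, in WT on the left and under the KO label on the right. Each point is a gene, filled where it passed the adjusted threshold; the 82 genes of the tubulin and microtubule lists lie between -0.91 and 1.38 under both labels, while the members reach 3.94.

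Markers of other cell types stand beside these results as sums of CPM, and the single markers given were named after their values were seen. The 6 hepatocyte markers, none at 0, summed to 71040 to 93910 in WT vehicle and 82860 to 136300 in WT APAP, and to 76640 to 97920 in KO vehicle and 78760 to 83770 in KO APAP. *Alb* alone had 43030 to 62710 CPM in WT vehicle and 58450 to 101100 CPM in WT APAP, so it made up most of the WT sums. *Cps1* was lower in WT APAP without overlap (-0.47, edgeR adjusted p = 0.371). Among the 6 markers *Cyp2e1*, the enzyme that turns APAP into its reactive product, fell under the KO label (-0.92, adjusted p = 0.0221). In WT its log2 fold change was -1.18 (edgeR adjusted p = 0.0503; called lower by DESeq2), and its groups did not overlap under either label. The 4 cholangiocyte markers, none at 0 in every liver of a group, summed to 2.54 to 7.71 in WT vehicle and 20.4 to 40.3 in WT APAP, and to 2.82 to 3.67 in KO vehicle and 18.0 to 28.5 in KO APAP. *Sox9* made up most of the APAP sums, with a mean of 27.6 CPM in WT APAP and 19.7 CPM in KO APAP. Of these 4 markers, *Sox9* passed the threshold under both labels (2.98, adjusted p = 0.0337 in WT; 3.46, adjusted p = 0.000242 under the KO label), while the defining keratin genes *Krt19* and *Krt7* did not (adjusted p from 0.49 to 0.919). *Epcam* passed under neither label (edgeR adjusted p = 0.159 in WT), and its groups overlapped under the KO label but not in WT. Neutrophil markers summed to 10.9 to 121.3 in WT APAP (median 19.1) and 1.10 to 16.8 in WT vehicle. With the KO label they summed to 0.847 to 7.27 after APAP and 1.36 to 2.37 with vehicle. Of the 4 neutrophil markers tested between WT and the KO label after APAP, 0 passed (4 had an unadjusted p under 0.05, DESeq2 called 0). For APAP against vehicle in WT 0 of 4 passed (1 had an unadjusted p under 0.05, DESeq2 called 0). The erythroid sum reached 17360 in WT APAP replicate 1. The 5 cycling cell markers summed to 1.17 to 1.80 in WT vehicle and 1.69 to 4.40 in WT APAP, where 0 of the 4 tested passed (1 had an unadjusted p under 0.05, DESeq2 called 0). With the KO label they summed to 3.29 to 4.72 with vehicle and 1.70 to 1.998 after APAP without overlap, and 2 of them, *Mki67* and *Cdk1*, fell. Over all genes, 1504 of 15665 passed as lower under the KO label. Kupffer cell and endothelial sums overlapped between vehicle and APAP livers under both labels. Of the 5 Kupffer cell markers, 5 had a lower level after APAP under the KO label, and 0 passed (2 had an unadjusted p under 0.05, DESeq2 called 2). In WT 4 were higher and 1 lower, and 0 passed (0 had an unadjusted p under 0.05, DESeq2 called 0). Of the 5 endothelial markers, *Lyve1* rose under both labels (1.15, adjusted p = 0.0287 in WT; 1.04, adjusted p = 0.00542 under the KO label), and *Kdr* fell under the KO label (-0.80, adjusted p = 0.0293). The stellate cell and fibroblast sum was 132.4 to 204.0 in KO vehicle and 111.8 to 119.7 in KO APAP, where 3 of its 5 genes fell, and 95.2 to 115.3 and 118.4 to 246.1 in WT. *Dcn* made up most of it, with means of 133.4 CPM in KO vehicle, 98.1 in KO APAP, 83.96 in WT vehicle and 147.4 in WT APAP. The lymphocyte sum was 0.599 to 1.18 in WT vehicle and 0.795 to 3.87 in WT APAP, and 1.13 to 3.01 in KO vehicle and 0.909 to 0.991 in KO APAP, which did not overlap. Of the 4 lymphocyte markers tested, 0 passed under either label (1 in WT and 0 under the KO label had an unadjusted p under 0.05, and DESeq2 called 0). The part of other cell types in the tubulin differences was not tested.

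The other alpha and beta tubulin genes in the table failed the count filter in both APAP comparisons. *Tubb1*, the beta isotype of platelets, had 127 counts in WT APAP replicate 1 and 0 to 5 in the other 11 livers. The platelet marker sum, in which *Tubb1* is 1 of 5 genes, was 3.27 to 23.8 CPM in WT APAP, with a median of 3.58. It was 2.85 to 4.94 CPM in KO APAP and 2.69 to 4.496 CPM with vehicle. *Tubb3*, the neuronal class III isotype, had 9, 10 and 15 counts in WT APAP and 9, 15 and 29 in KO APAP, against 0, 0 and 0 in WT vehicle and 0, 3 and 0 in KO vehicle. Its APAP counts lay above its vehicle counts under both labels, at a level of 0.131 to 0.449 TPM. *Tubb4a* had 0 to 8 counts with vehicle and 4 to 24 after APAP. *Tuba3a*, *Tuba3b* and *Tubal3* had 0 to 5 counts in any liver, so no difference was detectable at this depth.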

How the data were processed

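Liver RNA libraries (TruSeq Stranded mRNA, paired-end) of 12 mice were sequenced by the authors, who deposited one table of raw read counts, FPKM and TPM per gene on mm10 (GRCm38). The submitters' notes name FastQC 0.11.7, Trimmomatic 0.38, HISAT2 2.1.0, Bowtie2 2.3.4.1 and StringTie 2.1.3b without roles; the handling of reads that match several genes is not given in the sources used here. The deposited counts were the basis of all tests, the deposited TPM values served for levels and shares, and the deposited FPKM values were used only to check the shares. The members and gene lists were chosen with earlier results of these data known.

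Counts were tested with edgeR 4.0.16 in R 4.3.3 (filterByExpr, TMM scaling, quasi-likelihood, Benjamini-Hochberg adjustment over all genes tested, threshold 0.05), each comparison on its own 6 livers and the interaction on all 12. CPM used TMM scaling, with a prior count of 2 on the log2 scale. Groups came from the labels. Nothing says more of the replicates than that they are separate livers. Alternatives were DESeq2 1.42.0 (size factors or Wald test), no filter, all 12 livers in one fit, a replicate block, limma 3.58.1 on quantile-normalized log2(TPM + 1), and each liver left out. The script was tested on simulated counts. Transcript windows of 100 bases, coding identities, loci and motifs came from the GENCODE vM21 and RefSeq tables of GRCm38.p6, the files' build. All members were named; from the lists, all other alpha and beta tubulins, all autoregulation genes, and up to 4 genes per other list by the smallest p among those called (2 where none was). Replicates of each group differed by more than sampling noise (chi-square per degree of freedom of 83.5 to 646.2), so none was counted as a repeat. Precision is limited by the number of livers rather than by depth, except for genes of few counts.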

Additional observations from a re-analysis of the deposited data

How the results depend on the processing

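Replicate numbers did not pair the livers (same-numbered deviations correlated at -0.264 to 0.049). The number of members called for APAP against vehicle in WT, 6, was 8 with the DESeq2 Wald test, 2 with the replicate block and 0 to 6 with 1 liver left out. All genes called in that comparison, 322, became 1413 with the DESeq2 Wald test, 1523 with all 12 livers in one fit, 62 with the replicate block and 41 to 442 with 1 liver left out; microtubule list genes, 0, became 2, 4 and 0 to 3 with DESeq2, all 12 livers and leave-one-out. Under the KO label, all 12 livers in one fit gave 10 list genes and 2249 genes in all, against 19 and 3538, and leaving out 1 liver gave 7 to 19 and 1995 to 3368. For WT against the KO label after APAP, genes called went from 5 to 29 (DESeq2), 0 (all 12 livers), 1 (replicate block) and 1 to 7 (leave-one-out); with vehicle from 4 to 137, 0, 0 and 0 to 16; and for the interaction from 0 to 9 (DESeq2) and 0 to 2. No member was called between labels or for the interaction in any of these. Signs of log2 differences that turned: after APAP, *Tuba1c* was 0.0010 with DESeq2 scaling or test, *Tubb2a* 0.0028 and *Tubb6* 0.0162 with the replicate block, and *Tubb2b* -0.0264 with limma. With 1 liver left out the ranges were -0.1781 to 0.0842 for *Tubb2a*, -0.0910 to 0.2217 for *Tubb2b*, -0.5908 to 0.5661 for *Tubb6*, -0.1321 to 0.3812 for *Tuba1a*, -0.2017 to 0.0787 for *Tuba1b*, -0.1787 to 0.1214 for *Tuba1c* and -0.7278 to 0.3619 for *Tuba8*. With vehicle they were -0.3848 to 0.6044 for *Tubb2a*, -0.4144 to 0.6228 for *Tubb2b* and -0.4830 to 0.0869 for *Tubb6*. For the interaction, *Tubb5* was -0.0309 with the block, and with limma *Tubb4b*, *Tubb5* and *Tuba4a* were 0.0694, -0.0643 and 0.0503; leave-one-out ranges were -0.2251 to 0.1141 for *Tubb4b*, -0.2105 to 0.2043 for *Tubb5*, -0.8218 to 0.3525 for *Tubb6*, -0.1583 to 0.0150 for *Tuba4a*, -0.3491 to 0.6321 for *Tubb2a* and -0.4835 to 0.5441 for *Tubb2b*. The cause was not tested. No APAP-to-vehicle fold change of a member turned sign. FPKM gave the same shares as TPM.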
